A study of Saccharomyces cerevisiae with 12 samples.

Results

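The genes described here are the 32 genes of the mevalonate pathway, sterol synthesis, sterol esterification and sterol uptake of the yeast Saccharomyces cerevisiae, with the regulators of these processes. They were chosen by name, and their probe sets were found through the platform's gene annotation. All 32 had a probe set of their own among the 9275 probe sets of the array that are not controls, 40 probe sets in all, and in all 5656 named genes had one. A gene with several was represented by the brightest, and 31 of the 32 passed the filter on dim signals. Ergosterol is the main sterol of yeast membranes. It is built from acetyl-CoA through mevalonate, farnesyl diphosphate, squalene and lanosterol, and several of the later steps use oxygen and heme or cytochrome b5. The transcription factors Upc2 and Ecm22 activate many of these genes when sterols are low. Aerobic yeast makes its own sterol and takes up little, while cells without oxygen rely on import through the ABC transporters Aus1 and Pdr11.

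RNA from 12 aerobic steady-state chemostat cultures was hybridised to Affymetrix S98 arrays, 1 array per culture. Growth was limited by 1 of 4 carbon sources, glucose, maltose, ethanol and acetate, with 3 arrays each. The dilution rate was 0.1 per hour, at 30 °C and a pH of 5. The labels of the 9 arrays other than glucose name the wild-type strain CEN.PK113-7D (MATa); those of the 3 glucose arrays name no strain. They also differ in oxygen: the protocol text puts dissolved oxygen between 60 and 75% of air saturation for the 9 arrays, and above 80% for the glucose arrays. In comparisons with glucose, carbon source and these differences between records cannot be told apart. The same differences enter every comparison of ethanol and acetate with glucose and maltose together, where glucose gives 3 of 6 arrays. The series is about how far transcriptional regulation controls fluxes in central metabolism. Ethanol and acetate, which carry 2 carbons, are called C2 compounds, and glucose and maltose sugars. Array descriptions also hold a code letter. It was P for every C2 array, glucose arrays 1 and 3 and maltose array 3. Maltose arrays 1 and 2 had M, and glucose array 2 had V. The code letter is thus partly confounded with C2 compounds against sugars. Fits that block on it set the C2 arrays against glucose arrays 1 and 3 and maltose array 3 only.

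Signals are linear, in arbitrary units, and scaled so that every array has the same trimmed mean, so they describe a transcript's share of the labelled RNA and not its amount per cell. Levels of different probe sets are not comparable. The median signal was 22.8 on maltose array 2, and 41.7 to 48.4 elsewhere. The highest signal of any probe set, controls included, was 3732 and 3765 on glucose arrays 1 and 3, and 7331 to 14811 elsewhere. A separate fit leaves those 2 glucose arrays out. Actin control probe sets at both ends of the transcript report on RNA quality, and their 3'/5' ratio ran from 9.27 to 14.0 on arrays 2 and 3 of ethanol and of acetate. The remaining 8 arrays had ratios of 3.31 or less. The ratio therefore moves with the C2 compounds. For YER148W, another control, it was 7.33 to 10.1 on arrays 2 and 3 of ethanol and of acetate. It was 3.64 on ethanol array 1, 4.87 on acetate array 1, and 2.39, 5.88 and 3.80 on maltose arrays 1 to 3. On glucose it was 2.35 to 3.01, so array 1 of ethanol and acetate is not matched to glucose on this control. Beside each gene of the chosen set that was called between C2 compounds and sugars, its change is given in 2 further fits. One reads ethanol and acetate from array 1 alone, and the other takes up the 3'/5' ratio (mean log2 over actin and YER148W) as a covariate. For called genes of the other lists, read further below, changes in these fits are not given. Culture markers followed the labels: PCK1, the gluconeogenic carboxykinase gene, read 2870 to 4017 on the C2 arrays and 118 to 225 on the sugar arrays. MAL11, a maltose permease gene, averaged 3458 ± 942 (SD, n = 3) on maltose and 494 ± 86.5 on glucose.

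On the C2 compounds the transcripts of 9 sterol synthesis genes were lower than on sugars, and those of both sterol importers were higher. Squalene epoxidase (ERG1), the sterol desaturase ERG5 and squalene synthase (ERG9) had the largest decreases. AUS1 and PDR11 rose. These calls depended on the arrays and on the fit. With the 3'/5' covariate, which moves with the C2 compounds, 1 member was lower and 0 higher. Over all probe sets that fit called 66 lower and 81 higher, in place of 408 and 817. With array 1 alone for ethanol and acetate the members' median log2 change was -0.20, in place of -0.26. Whether RNA quality caused the lost calls was not tested. Without acetate array 2, or without acetate array 3, the lower count was 5, and without ethanol array 3 it was 6. Over all probe sets these 3 fits called 251, 236 and 266 lower, in place of 408. The remaining 20 tested genes were not called, among them the 3 regulators. The test was limma with 1 mean per carbon source over 7176 probe sets, and a call was a Benjamini-Hochberg adjusted p under 0.05. Over all probe sets 5.69% were called lower and 11.4% higher, so 9 of 31 members stand against 5.69%, and 2 of 31 against 11.4%. After quantile normalization the split over all probe sets was 645 lower and 767 higher, in place of 408 and 817, and 13 members were lower and 2 higher. The median log2 change of the members was -0.26, beside 0.12 over all probe sets (-0.32 and 0.01 after quantile normalization). Of the 31 members 25 had a negative log2 change, against 38.0% of all probe sets.

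**Figure D1:**
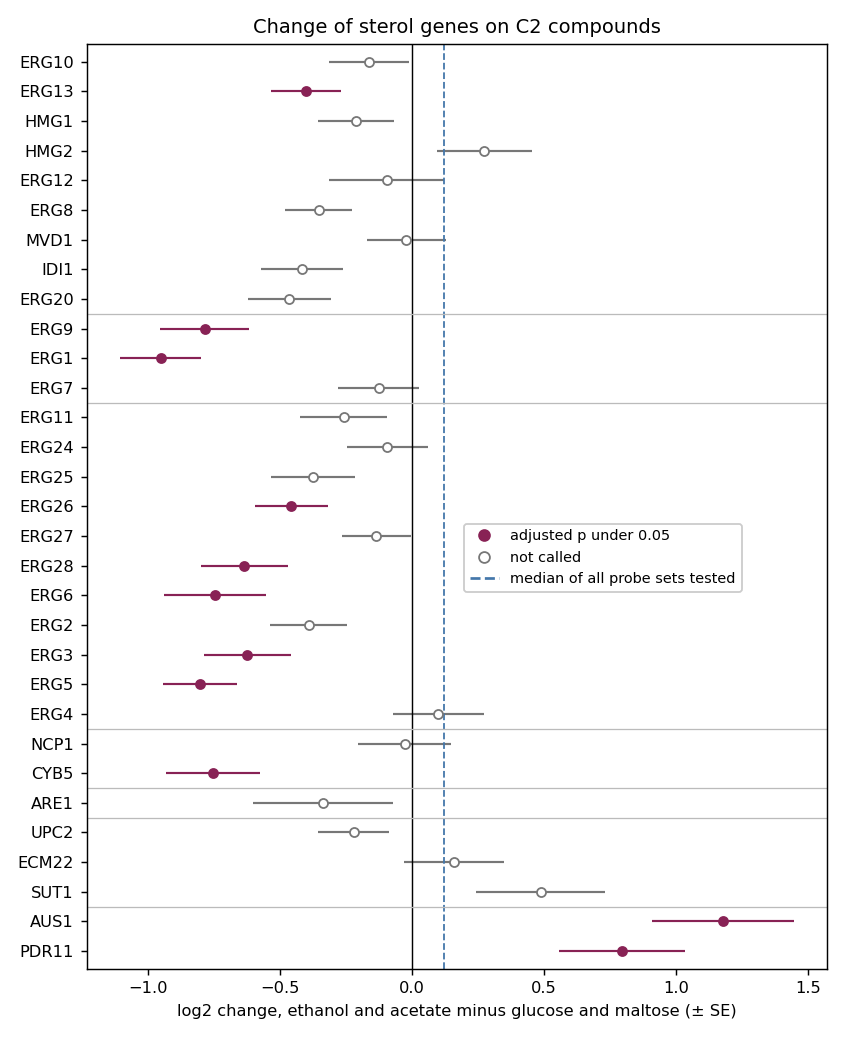
Log2 change of each tested sterol gene between the C2 compounds and the sugars, with its standard error, grouped by step of the pathway from the mevalonate genes at the top to the importers at the bottom. Filled points passed an adjusted p of 0.05; the 9 called decreases lie between -0.95 and -0.40, and the dashed line marks the median of all probe sets at 0.12.

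Among the 9 genes of the mevalonate pathway, 1 fell, against 5.69% of all probe sets. With 9 genes, 1 call cannot be set apart from that share. ERG13, the HMG-CoA synthase gene, read 570, 527 and 640 on the glucose arrays 1 to 3, 684, 601 and 586 on maltose, 610, 465 and 437 on ethanol, and 498, 385 and 366 on acetate. The 4 lowest values came from those 4 arrays whose actin ratios were high; ethanol array 1 lay among the sugar values. ERG13 fell by 0.40 ± 0.13 on the log2 scale (SE, 6 arrays against 6, limma adjusted p = 0.0474). The call ended when any of 9 single arrays was left out (every glucose array, maltose 1 or 2, ethanol 2 or 3, acetate 2 or 3), with adjusted p between 0.0544 and 0.125. Its change was -0.12 with array 1 alone and -0.03 with the covariate.

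The other mevalonate genes were not called, and their log2 changes ran from -0.47 to 0.27. ERG20, which makes farnesyl diphosphate, had the value nearest to the threshold at -0.47 ± 0.16 (limma adjusted p = 0.0527). Its signal was 335 ± 46.7 (SD, n = 3) on glucose, 244 ± 64.9 on maltose, 191 ± 19.6 on ethanol and 220 ± 34.5 on acetate. Glucose arrays 1 and 3 read highest, and maltose array 1, at 313, lay above glucose array 2, at 291. IDI1, the isopentenyl diphosphate isomerase gene, was at -0.42 ± 0.16 (adjusted p = 0.0763) and the phosphomevalonate kinase gene ERG8 at -0.35 ± 0.13 (adjusted p = 0.0654). ERG10, the acetoacetyl-CoA thiolase gene at the entry of the pathway, was at -0.16 ± 0.15, and MVD1, the mevalonate diphosphate decarboxylase gene, at -0.02 ± 0.15.

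Both genes of HMG-CoA reductase, the main control point of the pathway, were uncalled and had changes of opposite sign. HMG1 was at -0.21 ± 0.15 (limma adjusted p = 0.323), with signals of 1302 ± 135 on glucose, 1795 ± 451 on maltose, 1450 ± 172 on ethanol and 1189 ± 202 on acetate. HMG2 was at 0.27 ± 0.18 (limma adjusted p = 0.309), with 325 ± 71.1, 245 ± 46.3, 428 ± 103 and 277 ± 71.3. Its 2 highest signals, 470 and 502, were on ethanol arrays 2 and 3, while ethanol array 1 read 310. With array 1 alone for ethanol and acetate, the HMG2 change was -0.17, and -0.37 in the fit that took up the 3'/5' ratio. The mevalonate kinase gene ERG12 had 4 probe sets that did not read alike. The brightest gave a log2 change of -0.10 ± 0.22 (limma adjusted p = 0.8), and another, with signals of 46.4 to 151 on sugars and 14.4 to 65.6 on C2 compounds, gave -1.60 ± 0.37 (limma adjusted p = 0.00879).

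The step from farnesyl diphosphate to lanosterol is made by 3 enzymes, and the genes of the first and second of them fell, against 5.69% of all probe sets. ERG1 encodes squalene epoxidase, the first oxygen-using step. Its signals were 783, 892 and 1088 on glucose, 970, 1578 and 1084 on maltose, 675, 555 and 459 on ethanol, and 599, 460 and 506 on acetate. Every C2 array read below every sugar array, which held for 1 of 31 members in this direction against 1.87% of all probe sets. ERG1 fell by 0.95 ± 0.15 on the log2 scale, a 1.94-fold step (limma adjusted p = 0.000681, lower on 6 of 6 C2 arrays), and the call held when any single array was left out (log2 from -1.02 to -0.85). With array 1 alone ERG1 was at -0.71 (adjusted p = 0.299) and with the covariate at -0.77 (adjusted p = 0.142), neither called.

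ERG9, encoding squalene synthase, which commits farnesyl diphosphate to sterols, read 722, 540 and 872 on glucose, 554, 743 and 784 on maltose, 565, 378 and 390 on ethanol, and 479, 353 and 296 on acetate. Ethanol array 1, at 565, was the only C2 array within the sugar range. The fall was 0.79 ± 0.17 on the log2 scale (limma adjusted p = 0.00535), with adjusted p of 0.0209 or less when any 1 array was left out. Array 1 alone gave -0.41 (adjusted p = 0.612), the covariate -0.32 (adjusted p = 0.492), and leaving out glucose arrays 1 and 3 together -0.60 (adjusted p = 0.0983), each without a call. ERG7, the lanosterol synthase gene, showed no such step. Its signal was 280 ± 32.7 on glucose, 276 ± 66.9 on maltose, 246 ± 47.2 on ethanol and 261 ± 9.37 on acetate, and its log2 change was -0.13 ± 0.15 (limma adjusted p = 0.608).

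**Figure D2:**
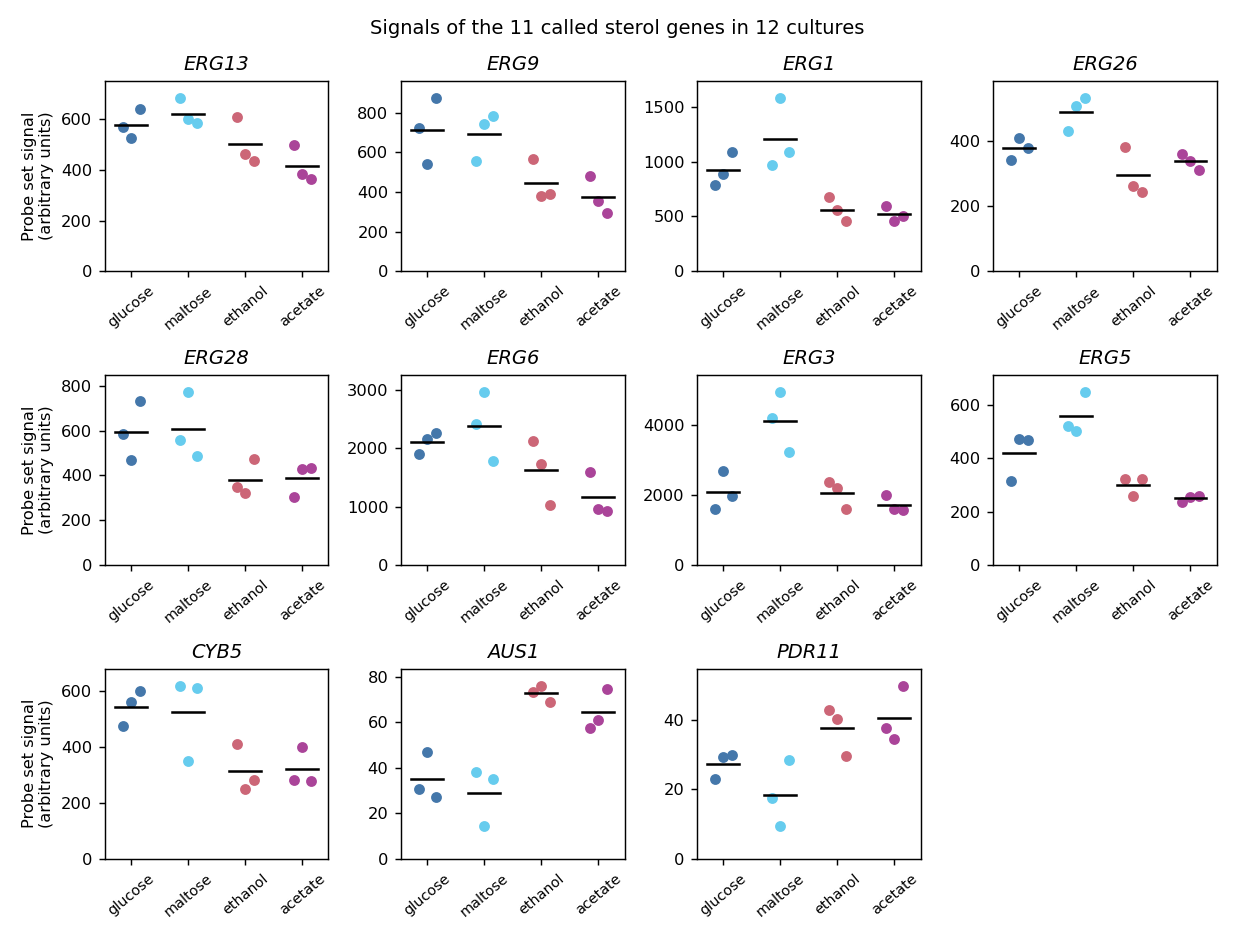
Probe set signals in arbitrary units on the 12 arrays for the 11 called genes, 3 points per carbon source with a bar at their mean, on axes that start at 0. In ERG1 the highest C2 value, 675, lies under the lowest sugar value, 783, and in AUS1 the lowest C2 value, 57.6, lies above the highest sugar value, 46.9.

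Of the 11 genes that turn lanosterol into ergosterol, 5 fell and none was called higher by limma, against 5.69% and 11.4% of all probe sets. ERG5 encodes a cytochrome P450 that desaturates the side chain of the sterol. It read 316, 474 and 467 on glucose, 522, 502 and 648 on maltose, 322, 259 and 321 on ethanol, and 238, 254 and 259 on acetate. Glucose array 1 overlapped with ethanol, and all other sugar arrays lay above all C2 arrays. ERG5 fell by 0.80 ± 0.14 on the log2 scale (limma adjusted p = 0.0013), and the adjusted p was 0.00583 or less when any 1 array was left out. It was -0.79 with array 1 alone (adjusted p = 0.183) and -0.82 with the covariate (adjusted p = 0.0854), not called in either.

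ERG6, the sterol methyltransferase gene, read 1896, 2165 and 2264 on glucose, 2422, 2962 and 1783 on maltose, 2119, 1738 and 1024 on ethanol, and 1584, 958 and 928 on acetate. The 3 lowest signals were on ethanol array 3 and acetate arrays 2 and 3, which have high actin ratios. Its fall of 0.75 ± 0.20 on the log2 scale (limma adjusted p = 0.0164) was not called without acetate array 2 or without acetate array 3 (adjusted p up to 0.0578). ERG6 was at -0.27 with array 1 alone and -0.23 with the covariate, uncalled. ERG3 encodes the desaturase of the sterol ring system. It read 1598, 2678 and 1964 on glucose, 4187, 4923 and 3205 on maltose, 2357, 2191 and 1608 on ethanol, and 1990, 1599 and 1572 on acetate. The maltose arrays stood apart from the rest, and glucose overlapped with both C2 sources. ERG3 fell by 0.62 ± 0.17 (limma adjusted p = 0.0179); without ethanol array 3, acetate array 2 or acetate array 3 it was not called (adjusted p up to 0.0579). The corresponding ERG3 values were -0.41 with array 1 alone and -0.46 with the covariate, uncalled.

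ERG28 encodes the scaffold that holds the demethylation enzymes together in the endoplasmic reticulum. Its signals were 584, 468 and 731 on glucose, 557, 772 and 488 on maltose, 347, 321 and 473 on ethanol, and 305, 429 and 433 on acetate. The groups overlapped only between glucose array 2 and ethanol array 3. The fall was 0.64 ± 0.17 on the log2 scale (limma adjusted p = 0.0161, at most 0.049 when 1 array was left out). ERG28 kept its call with the covariate (-1.01, adjusted p = 0.0412) and not with array 1 alone (-0.86, adjusted p = 0.223), with a code letter block (-0.57) or without glucose arrays 1 and 3 (-0.48). ERG26, the decarboxylase gene of that complex, read 343, 410 and 381 on glucose, 433, 508 and 532 on maltose, 383, 261 and 244 on ethanol, and 362, 340 and 311 on acetate. Maltose stood highest, and glucose overlapped with array 1 of both C2 sources. ERG26 fell by 0.46 ± 0.14 (limma adjusted p = 0.0332), a call lost when glucose 2 or 3, ethanol 2 or 3 or acetate 2 or 3 was left out (adjusted p between 0.0693 and 0.0876). It was -0.21 with array 1 alone and -0.17 with the covariate.

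The other 6 genes of this stretch had log2 changes between -0.39 and 0.10 and were not called. ERG11, the lanosterol demethylase that azole antifungals target, was at -0.26 ± 0.17 (limma adjusted p = 0.289). Its signals on maltose arrays 1 and 2 were 4067 and 5337, and the other 10 arrays lay between 2157 and 3154. ERG25, the sterol methyl oxidase gene, had a like profile, with 4035 and 5589 on maltose arrays 1 and 2 and 2101 to 3014 on the others, and a log2 change of -0.38 ± 0.16 (adjusted p = 0.114). Maltose arrays 1 and 2 are also the 2 arrays whose description has the code letter M. ERG2, the sterol isomerase gene, was at -0.39 ± 0.15 (adjusted p = 0.0759), and ERG24, ERG27 and ERG4, all sterol reductase genes, at -0.09 ± 0.15, -0.14 ± 0.13 and 0.10 ± 0.17.

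Of the electron donors to these oxygen-using steps, 1 of 2 fell, against 5.69% of all probe sets, and 2 genes are too few to set against that share. CYB5, encoding cytochrome b5, which passes electrons to the sterol and fatty acid desaturases, read 472, 560 and 598 on glucose, 617, 348 and 608 on maltose, 408, 248 and 282 on ethanol, and 282, 398 and 279 on acetate. Maltose array 2 lay among the C2 values and the other 5 sugar arrays above them. The fall was 0.75 ± 0.18 on the log2 scale (limma adjusted p = 0.00916, at most 0.032 when 1 array was left out). CYB5 was at -0.62 with array 1 alone (adjusted p = 0.454) and -0.44 with the covariate (adjusted p = 0.427), and at -0.78 without glucose arrays 1 and 3 (adjusted p = 0.06), none called. NCP1, the reductase gene that serves Erg11 and Erg5, was at -0.03 ± 0.18 (adjusted p = 0.934), with signals of 209 ± 52.0 on glucose, 275 ± 88.8 on maltose, 234 ± 33.5 on ethanol and 227 ± 33.5 on acetate.

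Sterol esterification could be read from 1 of its 2 acyltransferase genes. ARE1 had signals between 34.0 and 105 and a log2 change of -0.34 ± 0.27 (limma adjusted p = 0.401). ARE2 was above the floor of 12 on only 2 arrays, ethanol 2 and acetate 2, with 20.5 as its highest signal, and was not tested.

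No regulator was called by limma. UPC2, the main activator of ergosterol genes and of sterol uptake, was near the detection floor, with 7.0, 18.1 and 14.6 on glucose, 10.3, 3.1 and 16.4 on maltose, 9.3, 7.5 and 9.2 on ethanol, and 3.3, 7.5 and 9.8 on acetate. All 6 C2 arrays were under the floor of 12, so no fold is given (adjusted p = 0.265). ECM22, its paralog, read 142, 148 and 124 on glucose, 135, 94.6 and 184 on maltose, 149, 111 and 185 on ethanol, and 151, 175 and 146 on acetate. The 4 sources overlapped, and the log2 change was 0.16 ± 0.19 (adjusted p = 0.596). SUT1, a regulator that promotes sterol uptake, read 40.3, 44.4 and 27.7 on glucose, 16.6, 15.6 and 25.5 on maltose, 54.6, 38.9 and 26.9 on ethanol, and 27.5, 38.0 and 41.6 on acetate. Every maltose value lay under every value of the other sources, and the share of all probe sets that separate so is not reported here. The C2 contrast was not called for SUT1 (0.49 ± 0.24, limma adjusted p = 0.182).

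Both importers rose. AUS1 read 30.8, 46.9 and 27.2 on glucose, 38.0, 14.3 and 35.2 on maltose, 73.4, 76.1 and 68.9 on ethanol, and 57.6, 61.0 and 74.7 on acetate. Its C2 and sugar arrays did not overlap, as for 5.77% of all probe sets in this direction. The rise was 1.18 ± 0.27 on the log2 scale, 2.26-fold (limma adjusted p = 0.00779, at most 0.0293 when 1 array was left out). The call ended with the code letter as block (adjusted p = 0.0554), with array 1 alone (1.11, adjusted p = 0.482), with the covariate (1.27, adjusted p = 0.198) and without glucose arrays 1 and 3 (0.95, adjusted p = 0.126). AUS1 has 5 further probe sets that never read above 18.9, so this result rests on 1 probe set. With the mean over the gene's probe sets the change was 0.38 and was not called (adjusted p = 0.0842).

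PDR11 read 22.8, 29.3 and 29.9 on glucose, 17.4, 9.5 and 28.5 on maltose, 42.8, 40.2 and 29.5 on ethanol, and 37.6, 34.4 and 49.7 on acetate. Ethanol array 3 fell among the glucose values and the other C2 arrays lay above all sugar arrays. The rise was 0.80 ± 0.24 (limma adjusted p = 0.0316), and leaving out any of 8 arrays (every glucose array, maltose 1, ethanol 1 or 2, acetate 2 or 3) ended the call, with adjusted p between 0.0513 and 0.0862. It was 0.50 with the code letter as block (adjusted p = 0.282), 0.85 with array 1 alone and 1.00 with the covariate, none called, so that block left neither importer called. AUS1 and PDR11 are related in sequence, and cross-hybridisation between them was not tested. Both are dim, and both read lowest on maltose array 2, where the median signal is low. Without that array the changes were 0.95 and 0.65 and both calls held.

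**Figure D3:**
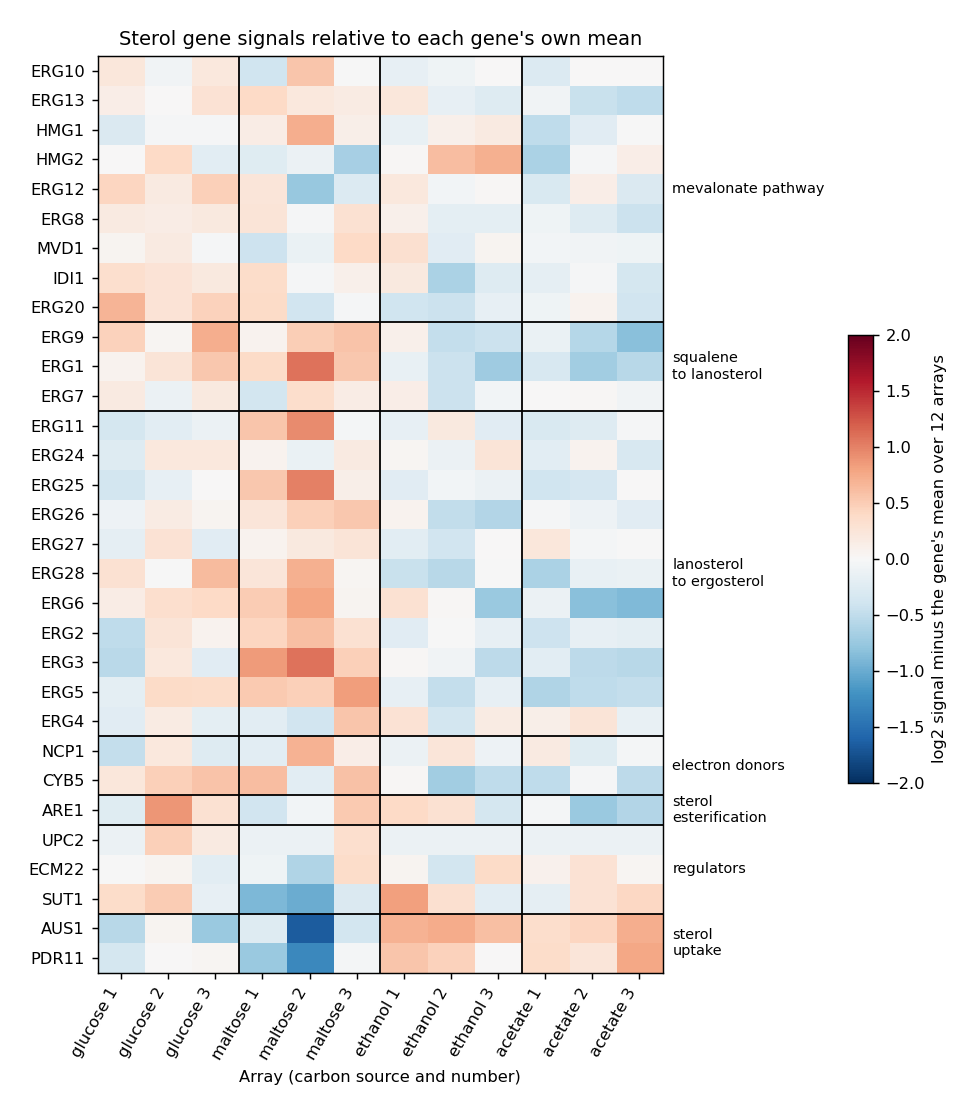
Log2 signal of the 31 tested genes on each array minus the gene's mean over the 12 arrays, with genes in pathway order and red for high. On average the lanosterol-to-ergosterol genes are reddest on maltose array 2, where the median signal is low. Their mean deviation there was 0.53, although ERG24 and ERG4 were at -0.13 and -0.39. AUS1 and PDR11 are lowest on that array, at -1.67 and -1.28, and above 0 on all 6 C2 arrays.

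Array 1 of ethanol and of acetate had actin ratios of 3.31 and 2.78, and YER148W ratios of 3.64 and 4.87. With these alone for the C2 compounds limma called 172 probe sets in place of 1225, and with the covariate 147. Under the covariate the changes of ERG13, ERG9, ERG26, ERG6 and CYB5 were smaller than in the fit of all arrays by over 1.5 times, ERG3 and ERG1 were smaller by less, and those of ERG5, ERG28, AUS1 and PDR11 were as large or larger. The median over the members was -0.20 with array 1 alone and -0.17 with the covariate, where the median of all probe sets was 0.13 and 0.22.

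**Figure D4:**
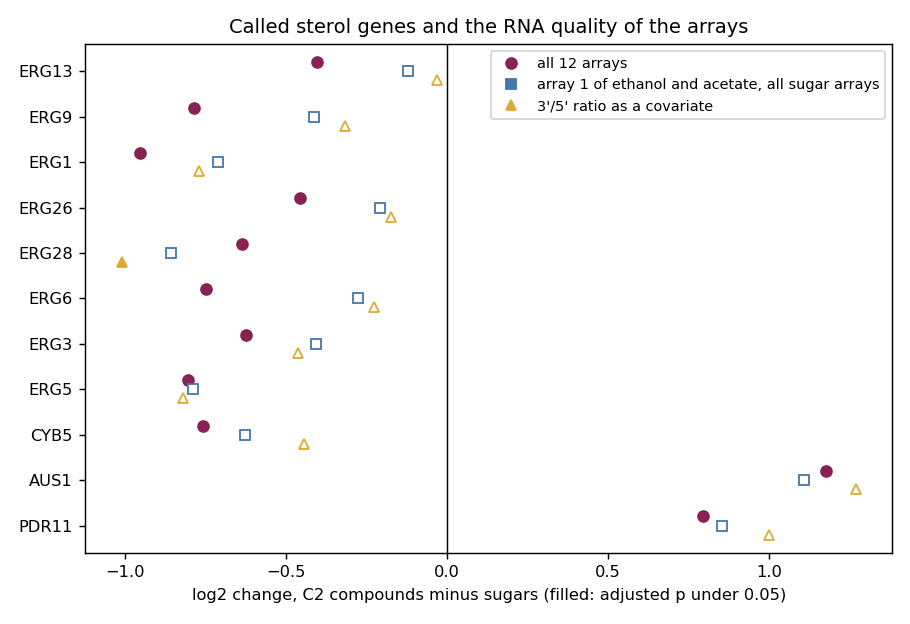
Log2 change on C2 compounds of the 11 called genes with all 12 arrays, with ethanol and acetate read from array 1 only, and in the fit that has the 3'/5' ratio as covariate; filled symbols passed an adjusted p of 0.05. ERG5 stays near -0.80 in all 3 settings, while ERG13 moves from -0.40 to -0.12 and -0.03.

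Across the 4 sources the moderated F test called 5 members, ERG1, ERG5, ERG3, ERG9 and AUS1, against 8.19% of all probe sets. Their adjusted p-values were 0.00472, 0.00607, 0.0114, 0.0349 and 0.0482. Over all probe sets the F test called 588. When 1 array was left out it called from 293 (without acetate 3) to 1028 (without maltose 3). The member count then ranged from 3 to 9. It was 3 without glucose 1 or 3, ethanol 2, or acetate 2 or 3, and 9 without maltose 3. It was 0 with array 1 alone and with the covariate.

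In the fit of all arrays acetate against maltose had the highest count of the 6 pairs. This order did not hold without maltose array 2, where it had 4 and acetate against glucose 5, or among arrays with code letter P, where it had 1 and both C2 sources against glucose 2. In this pair 7 members were lower and 2 higher on acetate, 9 of 31 against 11.2% of all probe sets. ERG3 fell by 1.24 ± 0.23 on the log2 scale, 2.36-fold (limma adjusted p = 0.00333), ERG1 by 1.19 ± 0.22 (adjusted p = 0.00261) and ERG5 by 1.15 ± 0.20 (adjusted p = 0.00173). ERG6, ERG9, ERG25 and ERG2 were the other decreases, from -1.06 to -0.71. ERG25 read 4035, 5589 and 3014 on maltose and 2101, 2200 and 2800 on acetate, and ERG2 read 2851, 3212 and 2608 against 1573, 1872 and 1843. On glucose ERG25 read 2170, 2477 and 2788 and ERG2 1481, 2527 and 2204, and on ethanol 2391, 2695 and 2554 and 1797, 2102 and 1884. In both genes the 3 acetate values lay under the 3 maltose values. How many of all probe sets separate in this way is not reported here. AUS1 rose by 1.26 ± 0.38 (adjusted p = 0.0447) and PDR11 by 1.14 ± 0.34 (adjusted p = 0.0404). Over all probe sets this pair had 801 calls. There were 554 without maltose 1, 464 without maltose 2, 292 without acetate 2 and 250 without acetate 3. The member count was 5 without maltose 1, 4 without maltose 2, and 3 without acetate 2 or acetate 3. It was 1 among arrays with code letter P, which leaves maltose array 3 alone.

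Ethanol against maltose gave 5 members, against 6.19% of all probe sets. ERG1 (log2 -1.09 ± 0.22, limma adjusted p = 0.00753), ERG3 (-1.00 ± 0.23), ERG5 (-0.89 ± 0.20) and ERG26 (-0.75 ± 0.20) fell, and AUS1 rose (1.44 ± 0.38, adjusted p = 0.0354). The count was 3 without maltose 2 or acetate 2, 2 without ethanol 3, 1 without ethanol 2 and 10 without maltose 3. Over all probe sets 444 calls became 312 without maltose 2 and 297 without acetate 2. They numbered 191 without ethanol 3, 160 without ethanol 2 and 989 without maltose 3. Acetate against glucose gave 3, against 5.5% of all probe sets, all lower on acetate: ERG9 (-0.92 ± 0.24, limma adjusted p = 0.0337), ERG1 (-0.82 ± 0.22) and ERG5 (-0.72 ± 0.20). That count was 0 without glucose 3, acetate 2 or acetate 3, 1 without glucose 1 or 2 or ethanol 2, and 5 without maltose 2. Over all probe sets the 395 calls of this pair became 159 without glucose 3, 133 without acetate 2 and 122 without acetate 3. There were 242, 217 and 327 without glucose 1, glucose 2 and ethanol 2, and 565 without maltose 2.

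In ethanol against glucose limma called 0 members, against 2.55% of all probe sets. At an unadjusted p under 0.05 there were 8 members, and the share of all probe sets at that threshold is not reported here. The count of called members was 2 without maltose 2 and 1 without ethanol 1, where all probe sets had 243 and 231 calls in place of 183. The comparisons with maltose and with glucose share the C2 arrays. ERG3 was at -0.01 ± 0.23 in ethanol against glucose, beside its -1.00 against maltose. ERG13, ERG28 and CYB5 were called over all C2 and sugar arrays and in none of the 6 pairs.

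The 2 sugars and the 2 C2 compounds were also set against each other. In maltose against glucose limma called 0 members, against 0.209% of all probe sets. There were 8 members at an unadjusted p under 0.05, and the share of all probe sets at that threshold is not reported here. The median log2 change was -0.01 over the members and -0.20 over all probe sets (-0.03 after quantile normalization). ERG3 had the highest change at 0.99 ± 0.23 (adjusted p = 0.129), ERG25 was at 0.73 ± 0.22 and ERG11 at 0.71 ± 0.23, and SUT1 had the lowest at -0.97 ± 0.35 (adjusted p = 0.341). Without maltose array 3 the count of called members was 3, and without glucose array 2 it was 1. All probe sets had 138 and 31 calls in these fits, in place of 15. In ethanol against acetate limma called 0 members, against 0.0279% of all probe sets. An unadjusted p under 0.05 was reached by 1 of 31 members and by 308 of 7176 probe sets, so this count does not stand out. The member was HMG2, at 0.63 ± 0.26 on the log2 scale with ethanol higher, and the members' log2 changes ran from -0.26 to 0.63.

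The genes with the profile most like that of a called member over the 12 arrays were named for the 3 members with the smallest F test p. For ERG1 these were PGI1 (Pearson's r = 0.961), encoding the glycolytic phosphoglucose isomerase, SSE2 (0.955), a chaperone gene, and RTS3 (0.944). For ERG5 they were ROQ1 (0.957), YPR145C-A (0.949) and ANS1 (0.945). For ERG3 they were PLN1 (0.918), a lipid droplet protein gene, HSP26 (0.913), a small heat shock protein gene, and PST2 (0.885). The 12 points share the carbon source groups and the differences in RNA quality, so r is given as a description.

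Genes that handle sterols outside the synthesis pathway were read from a list of 23. By limma 3 fell and 2 rose, against 5.69% and 11.4% of all probe sets, with a median log2 change of 0.07. DAP1, whose heme-binding protein supports Erg11, fell by 1.04 ± 0.19 on the log2 scale (limma adjusted p = 0.00186), from 539 ± 112 (SD, n = 3) on glucose and 712 ± 284 on maltose to 329 ± 20.7 on ethanol and 255 ± 23.2 on acetate. SUT2, a paralog of SUT1, rose by 1.06 ± 0.20 (adjusted p = 0.00221), from 41.4 to 77.0 on sugars to 94.5 to 154 on C2 compounds. ATF2, an acetyltransferase gene that acts on steroids, fell by 0.92 ± 0.26 (adjusted p = 0.0249). The C2 and sugar arrays did not overlap for DAP1 and SUT2, and they did for ATF2. Whether the calls in this list hold with array 1 alone or with the covariate is not reported here. Over all probe sets 1.87% did not overlap in the lower direction and 5.77% in the higher.

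Acetyl-CoA is the carbon source of the whole pathway. Of the 3 genes listed for its supply and use, the acetyl-CoA synthetase gene ACS1 rose (log2 0.92 ± 0.14, limma adjusted p = 0.000396). The ACS1 change with array 1 alone or with the 3'/5' covariate is not reported here. ACS2, the other synthetase gene, was at 0.30 ± 0.14 (adjusted p = 0.158), and ACC1, which draws acetyl-CoA into fatty acids, at -0.37 ± 0.16 (adjusted p = 0.129).

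Because the importers belong to the response to lack of oxygen, markers of that state are given beside them. Of 13 oxygen limitation markers 12 had a probe set of their own and 11 were tested. By limma none was called higher and 1 was lower, against 11.4% and 5.69% of all probe sets. That was CYC7, the minor cytochrome c gene, with 53.5 to 124 on sugars and 6.6 to 18.8 on C2 compounds. The CYC7 change with array 1 alone or with the 3'/5' covariate is not reported here. The summed signal of the 12 ran from 850 to 1332 on glucose, 922 to 1418 on maltose, 828 to 979 on ethanol and 720 to 1017 on acetate. AAC3, which is defining for growth without oxygen, was at 12.9 or less on every array. DAN1, another, read 5.1 to 25.5 on sugars and 0.9 to 21.3 on C2 compounds. Other markers were not near the floor of 12 on any array. TIR1 read 113 to 239 on sugars and 115 to 194 on C2 compounds, TIR2 98.6 to 280 and 100 to 149, and TIR3 146 to 500 and 134 to 252. None of these TIR genes was called by limma. The list is too small to set 0 higher calls apart from the 11.4%.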

How the data were processed

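The deposited values are intensity signals of 9335 probe sets on 12 Affymetrix arrays. Per the submitters' processing notes, 9 arrays were processed with MAS5 (version not stated); for the 3 glucose arrays no software is named in the labels. Control probe sets (60) were left out. Platform annotation gave 6504 probe sets 1 gene, 328 several and 2443 none. Signals were rescaled to 1 trimmed mean (2% off each end), floored at 12 and log2-transformed, and probe sets above 12 on at least 3 arrays were kept (7176; 2099 left out). limma 3.58.1 in R 4.3.3 fitted a mean per carbon source with an intensity trend, and p-values were Benjamini-Hochberg adjusted within each contrast. The fit was tested on simulated data. The number of arrays limits precision; labels do not say that cultures were independent, so p-values measure the spread between these arrays.

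The members and gene lists were chosen with earlier results of these data known. Named genes are all members, with every array value for those called in any contrast, for the regulators and for the importers; up to 3 called genes per other list, by size of change; and the 3 genes most like each of the 3 members with the smallest F test p. Alternatives were 12 settings and 12 fits that each left out 1 array. Cross-hybridisation between related genes was not tested. Python 3.11.15, pandas 2.3.3 and matplotlib 3.10.9 made tables and figures.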

Additional observations from a re-analysis of the deposited data

How the results depend on the processing

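Over C2 compounds against sugars, the 31 tested members under 24 alternatives kept their call or lack of one 643 times, lost a call 78 times and gained one 20 times, and 0 called changes turned direction. The 17 calls in pairs were kept 245 times and lost 162 times; calls gained in pairs show in the counts below. Counts over C2 compounds against sugars (9 lower, 2 higher) were 4 and 0 with a code letter block, 4 and 1 with arrays of code letter P only, 1 and 0 with the 3'/5' covariate, 0 and 0 with array 1 of ethanol and acetate only, and 3 and 0 without glucose arrays 1 and 3. The higher count was 1 with a floor of 50, with no filter and with the mean over a gene's probe sets, and 4 with array weights. At the floor of 50 PDR11, whose highest signal was 49.7, was not tested, so that drop is not a lost call. Leaving out 1 array gave 5 to 12 lower and 1 to 2 higher, and over all probe sets 236 to 497 lower and 469 to 1111 higher. The F test count (5) was 2 with no filter, the code letter block or letter P only, 0 with the covariate and with array 1 only, 3 without glucose arrays 1 and 3 and 20 with array weights, and 3 to 9 when 1 array was left out. Array weights also gave 4 calls in maltose against glucose, 1 in ethanol against acetate, 8 in ethanol against glucose, 11 in acetate against glucose, 13 in ethanol against maltose and 16 in acetate against maltose, where 2826 probe sets were called over C2 compounds against sugars in place of 1225. Ethanol against glucose (0) was 1 with quantile normalization or a floor of 50 and 2 with letter P only. Acetate against glucose (3) was 1 with the code letter block and 0 with no filter, no intensity trend, the covariate, array 1 only, or without glucose arrays 1 and 3. Ethanol against maltose (5) was 3 with no filter or without glucose arrays 1 and 3, 1 with the code letter block, and 0 with letter P only, the covariate or array 1 only. Acetate against maltose (9) was 3 with no filter, 1 with the code letter block or letter P only, and 0 with array 1 only. Leaving out 1 array gave 0 to 3 in maltose against glucose, 0 in ethanol against acetate, 0 to 2 in ethanol against glucose, 0 to 5 in acetate against glucose, 1 to 10 in ethanol against maltose and 3 to 13 in acetate against maltose. Over all probe sets the C2 calls were 478 without glucose arrays 1 and 3, 568 with the code letter block, 699 with letter P only, 789 with no filter, 172 with array 1 only and 147 with the covariate. The labels do not pair arrays by replicate number, and the 18 same-numbered pairs correlated between -0.21 and 0.53, 6 of them over 0.1. The highest were ethanol 1 with acetate 1 (0.53) and ethanol 3 with acetate 3 (0.43), while ethanol 2 with acetate 2 was at -0.08. Across numbers, ethanol 3 with acetate 1 was at -0.52 and ethanol 1 with acetate 3 at -0.48. Whether these C2 arrays share a batch was not tested. With the replicate block 9 members were lower and 2 higher, and AUS1 lost its call in acetate against maltose. Causes of these shifts were not tested. With array 1 only, ethanol and acetate have 1 array each, assumed to vary like the sugar arrays.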

Other observations

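Other pathways that meet sterol synthesis were also read between C2 compounds and sugars. Over all probe sets limma called 5.69% lower and 11.4% higher. Each of these lists is too small to set 0 calls apart from those shares. Of 6 genes for the turnover of HMG-CoA reductase 0 were called; log2 changes ran from -0.49 for CUE1 (adjusted p = 0.15) to 0.33 for HRD3, which encodes a part of the ubiquitin ligase that degrades the reductase. Of 9 other users of farnesyl diphosphate 8 were tested and 0 called, with a median log2 change of 0.37. COX10, which farnesylates heme, was at 0.56 ± 0.27 (adjusted p = 0.17).

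Of 8 heme synthesis genes 0 were called by limma, against 5.69% lower and 11.4% higher over all probe sets. HEM13, the oxygen-using coproporphyrinogen oxidase gene, was at 0.67 ± 0.23 (adjusted p = 0.0554), with 28.9 to 60.4 on sugars and 58.8 to 87.5 on C2 compounds. Of the oxygen regulators HAP1, ROX1 and MOT3, 0 were called, with log2 changes of 0.02, 0.02 and 0.40.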
